A study of Homo sapiens with 2 samples.

Results

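Loci without a gene name are stretches of the genome that were assembled from RNA-seq reads and given a number, but that carried a dash where a gene symbol would stand. Of the 19217 loci in the deposited table, 2919 had no name. The 2729 with at least 1 FPKM (fragments scaled to locus length and library size) in either library are described here, and the other 190 were under 1 FPKM in both. Members were chosen by their FPKM in these same libraries, so levels are given as a description. Just inside this limit were XLOC_006168, at 1.00 FPKM in the parental and 0.631 FPKM in the resistant line, and XLOC_016797, at 0.188 and 1.00 FPKM. Just outside it were XLOC_007100, at 0.999 and 0.597 FPKM, and XLOC_013255, at 0.999 and 0.968 FPKM.

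The cells were SBC5, an established human small cell lung cancer line. One library came from parental cells and 1 from resistant cells, made from the parental line by exposure to cisplatin, a platinum drug that cross-links DNA, at 1, 2, 4 and then 20 µg/ml. Both were grown in the same serum-supplemented medium, and polyadenylated RNA was turned into strand-preserving libraries. The labels do not say whether the resistant cells are 1 clone or a mixed population, or whether drug was present when RNA was taken. With 1 library per group no difference has a replicate check and no p-value is given. A difference is called higher or lower by size alone, when the resistant value plus 1 over the parental value plus 1 was at least 2-fold up or down (log2 ratio at or past 1 or -1).

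Much of the human genome outside annotated genes gives rise to some RNA. Such RNA includes long noncoding RNAs, antisense transcripts, transcripts of pseudogenes and repeats, transcription that runs on past the end of a gene, and fragments of introns caught before splicing. An assembler reports whatever the reads support and leaves the name blank where no annotated gene was assigned, so an unnamed locus may belong to any of these kinds.

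The table held no coordinates, and no sequence could be read for any locus. Locus numbers, however, followed the genome. The 15620 named loci that matched 1 annotated gene followed the order of the chromosomes, with 10 exceptions. Each chromosome was then split into 3 parts, at the breaks that best kept annotated starts rising and strands together. Departures from the order within a part were not counted. A pair of these parts is called plus and minus here, and 98.7% of 11947 such loci in them were annotated on that strand. Annotated strand was used to choose the breaks, so this share is partly set by the fit. In the remaining part of each chromosome 51.0% of 3663 were annotated on the plus strand, and it is called the part of no strand. This placement was inferred and is not recorded in the table.

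Unnamed loci lay mostly in the parts of no strand. These held 2303 of the 2729 members (84.4%), against 22.5% of the 15967 named loci of at least 1 FPKM. The plus parts held 182 members (6.67%), the minus parts 177 (6.49%), and 67 (2.46%) could not be placed. Among the chromosomes that held members, their number ran from 24 on chromosome 18 to 287 on chromosome 2.

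As a check of the cell label, 7 of 13 listed small cell lung cancer and neuroendocrine genes had a row under their name. UCHL1, a neuronal ubiquitin hydrolase, was at 251 FPKM in the parental and 259 FPKM in the resistant line, and SOX2, a stem cell transcription factor, at 214 and 197 FPKM. The neuroendocrine genes NEUROD1, INSM1 and CHGA had no row under those names, while YAP1, the marker of a non-neuroendocrine class, was at 76.6 and 84.7 FPKM. None of 3 endothelial, 2 of 5 haematopoietic and 3 of 5 fibroblast markers had a row. The summed haematopoietic level was 28.8 FPKM in the parental and 17.3 FPKM in the resistant line, mostly from CORO1A. The summed fibroblast level was 51.5 and 21.5 FPKM, of which PDGFRA gave 48.0 and 10.1 FPKM, while COL1A1, at 2.34 and 3.85 FPKM, and COL3A1, at 1.18 and 7.51 FPKM, had higher values in the resistant line. Their part in the results below was not tested.

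Most unnamed loci were near the lower limit. Their median was 1.81 FPKM in the parental and 1.77 FPKM in the resistant line, against 9.40 and 9.66 FPKM for named loci. By the mean of both libraries, 1199 members (43.9%) lay between 1 and 2 FPKM and 750 (27.5%) between 2 and 5 FPKM. At the other end, 36 members were at 1000 FPKM or above. Those 36 were among only 117 loci of any kind at that level, and 35 of them lay in a part of no strand.

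**Figure D1:**
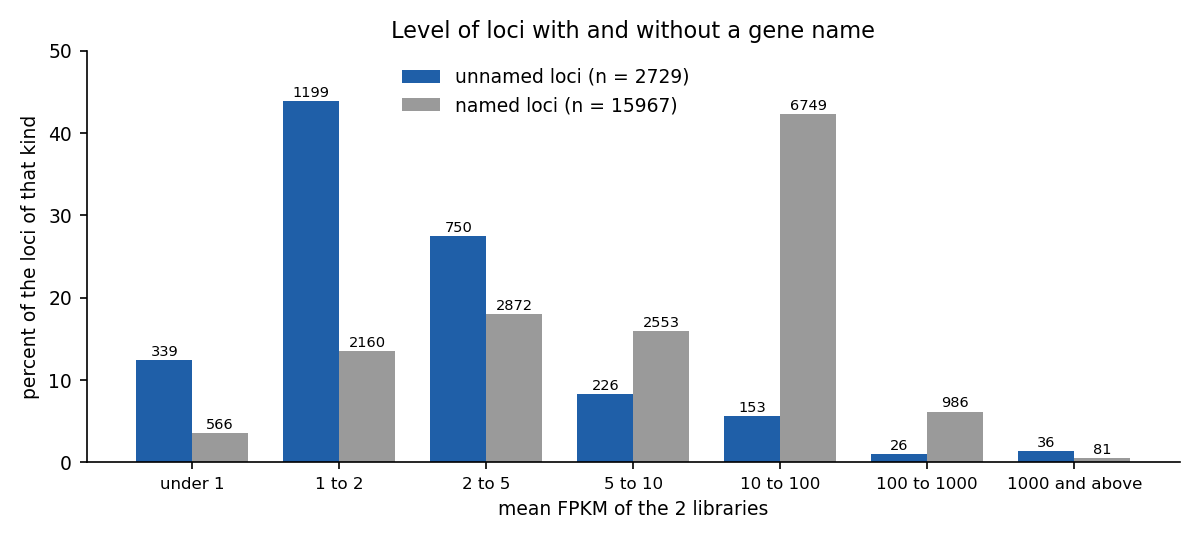
Percent of unnamed (blue) and named (grey) loci in each class of mean FPKM over both libraries, with the number of loci above each bar. Unnamed loci peak at 1 to 2 FPKM, with 1199 loci, while named loci peak at 10 to 100 FPKM, with 6749 loci.

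A few loci therefore carried nearly all of the unnamed signal. The members made up 23.9% of the summed FPKM in parental and 24.1% in resistant cells. The 50 highest held 95.1% and 95.6% of that unnamed sum, and the 10 highest 59.8% and 53.8% of it. FPKM divides by locus length, so a short locus can reach a very high value from few fragments, and lengths were not analysed here.

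The highest mean was that of XLOC_006194 in the no-strand part of chromosome 15, between the named loci MORF4L1 and FAH, at 29691 FPKM in the parental and 25357 FPKM in the resistant line. Among all loci of the table it ranked second. XLOC_016963 on chromosome 7, between TTC26 and LUC7L2, was at 35271 FPKM in the parental and 15974 FPKM in the resistant line, a log2 ratio of -1.14. It was lower in resistant cells by the size rule, whereas LUC7L2, a splicing factor gene next to it, was at 36.7 and 38.02 FPKM.

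The opposite direction was seen at XLOC_001542 on chromosome 1, between AK5 and NEXN, at 6164 FPKM in the parental and 12966 FPKM in the resistant line (log2 ratio 1.07). That call depends on scaling, since the log2 ratio is 0.99 when both libraries are set to an equal sum. The others of the 10 highest were within 2-fold. On chromosome 11, XLOC_003566 was at 12668 and 17896 FPKM, XLOC_003487 at 12023 and 14974 FPKM, and XLOC_003541 at 10571 and 7327 FPKM. XLOC_001578 on chromosome 1 was at 12870 and 16944 FPKM, XLOC_004616 on chromosome 12 at 9734 and 10201 FPKM, XLOC_012425 on chromosome 22 at 7534 and 10236 FPKM, and XLOC_010938 on chromosome 2 at 8895 and 8309 FPKM. Of the 36 members at 1000 FPKM or above, 6 (16.7%) were higher and 2 (5.56%) lower in resistant cells, against 5 (6.17%) and 2 (2.47%) of the 81 named loci at that level.

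Many of these ratios were simple fractions. Among loci above 0 in both libraries, 62.7% of 2682 members had a ratio of the libraries that matched a fraction of integers no larger than 20, multiplied by the common factor 0.996 and with 2e-05 allowed as relative error, against 18.7% of 15911 named loci. With 20 wrong factors the mean share was 0.492%. Given as parental to resistant, here and below, XLOC_006194 matched 7 to 6, XLOC_016963 matched 11 to 5 and XLOC_003487 matched 4 to 5. The contrast between kinds was widest at 50 FPKM and above, where 67.5% of 77 members matched against 1.71% of 2285 named loci. It followed the part as well as the name: in the parts of no strand 67.3% of members and 65.1% of named loci matched, and in the plus and minus parts 32.8% and 5.20%. A ratio of 7 to 6 can come from 7 and 6 fragments or from any multiple of them, so the number of fragments behind a single value is unknown. Matching loci could rest on few fragments even at a high FPKM or a large ratio, which was not tested.

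Across all members the 2 libraries were centred alike, and differences went both ways. The median log2 ratio was -0.01. By the size rule 229 members (8.39%) were higher and 275 (10.1%) lower in resistant cells, and 2225 were within 2-fold. Over all 18696 loci of at least 1 FPKM, 5.48% were higher and 4.27% lower, and 9.75% were past the limit either way. Named loci gave 4.99% higher and 3.28% lower. In RNA from a whole culture, fewer cells that express a locus and less of its RNA per cell cannot be told apart. Of the members, 24 were listed at 0 in parental and 23 at 0 in resistant cells.

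**Figure D2:**
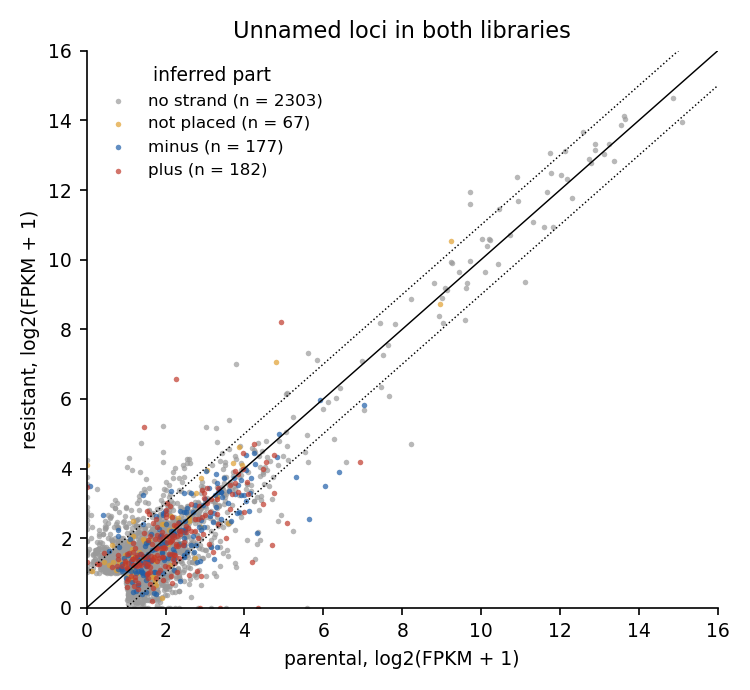
Each point is 1 unnamed locus, with its parental level on the x axis and its resistant level on the y axis, both as log2(FPKM + 1), coloured by inferred part. The solid line marks equal levels and the dotted lines the 2-fold limit, and 229 loci lie on or above the upper one and 275 on or below the lower one.

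The balance differed by part. In the plus and minus parts 15 of 359 members (4.18%) were higher and 44 (12.3%) lower, with a median log2 ratio of -0.19. All loci of those parts gave 2.93% higher and 2.82% lower, 5.76% in all, and named loci there had a median of -0.04. In the parts of no strand 9.08% of members were higher and 9.86% lower, with a median of -0.00. Named loci in the same parts went the other way, with 12.1% higher, 5.78% lower and a median of 0.22. These differences between kinds of loci were not tested.

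**Figure D3:**
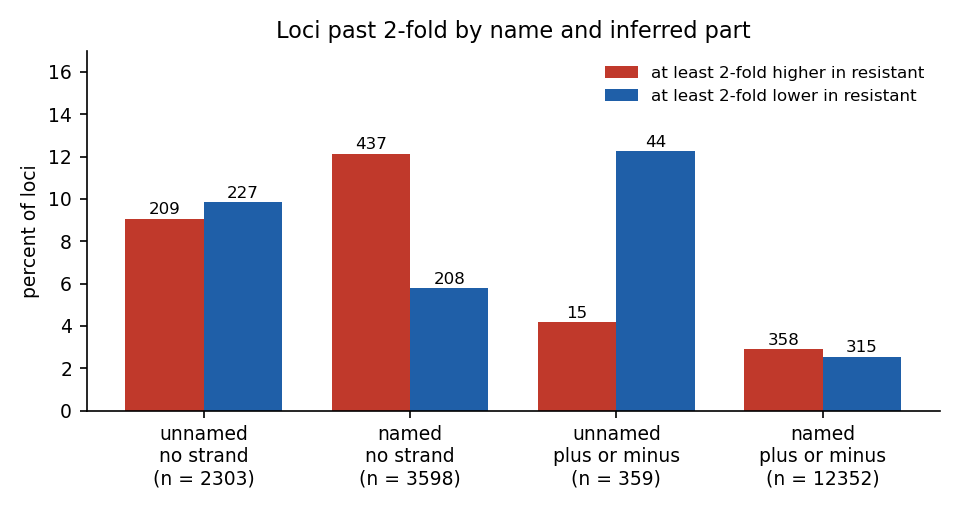
Percent of loci at least 2-fold higher (red) or lower (blue) in resistant cells, for unnamed and named loci in the parts of no strand and in the plus and minus parts, with counts above the bars. Among unnamed plus and minus loci 44 were lower and 15 higher, while among named no-strand loci 208 were lower and 437 higher.

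With the pseudocount of 1, the largest ratio of a locus seen in both libraries belonged to XLOC_001917 in the plus part of chromosome 10. It was at 3.78 FPKM in the parental and 94.1 FPKM in the resistant line, a log2 ratio of 4.31. Its neighbours were AKR1E2 and AKR1C1, members of the aldo-keto reductase family, which reduce aldehydes and ketones. The gap between these genes runs from 4848063 to 4963252 on hg38 and held 0 annotated plus-strand genes lacking a row of their own. Neither neighbour was past 2-fold: AKR1E2 was at 12.9 and 14.7 FPKM and AKR1C1 at 4.08 and 3.35 FPKM.

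XLOC_010099 in the plus part of chromosome 2 was at 1.73 FPKM in the parental and 35.8 FPKM in the resistant line (log2 ratio 3.75). It lay between COL3A1, a fibrillar collagen gene at 1.18 and 7.51 FPKM, and WDR75, a ribosome biogenesis gene at 524 and 534 FPKM. The one annotated plus-strand gene in that gap without a row was the antisense transcript AC133106.1. XLOC_013157 in the minus part of chromosome 3 was at 0.0534 and 10.4 FPKM (log2 ratio 3.43), and with a pseudocount of 0.1 its log2 ratio of 6.09 exceeded the 4.602 of XLOC_001917. It stood beside MECOM, a zinc finger transcription factor gene at 0.273 and 16.97 FPKM. Here locus and neighbour were both far higher in resistant cells, while GOLIM4 on the other side was at 29.5 and 28.4 FPKM.

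XLOC_009934 in the plus part of chromosome 2 was at 29.4 FPKM in the parental and 293 FPKM in the resistant line (log2 ratio 3.27), a ratio that matched 1 to 10. The long noncoding RNA LINC00152 before it was at 101 and 87.8 FPKM, and THNSL2 after it at 6.84 and 6.05 FPKM. XLOC_003507 in the no-strand part of chromosome 11 also matched 1 to 10, at 12.8 and 128 FPKM. XLOC_017566 on chromosome 8 was at 2.81 and 36.3 FPKM, a match to 1 to 13.

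Some loci were listed at 0 in parental cells, and no fold is given for them. The highest in resistant cells were XLOC_016859 on chromosome 7 at 18.1 FPKM, XLOC_018588, which could not be placed, at 16.1 FPKM, and XLOC_001551 on chromosome 1 at 12.4 FPKM. XLOC_018282 on chromosome 9 was at 10.7 FPKM, and XLOC_017673 in the plus part of the same chromosome, between SH3GL2 and ADAMTSL1, at 10.1 FPKM. SH3GL2, a gene of synaptic vesicle endocytosis, was at 1.76 FPKM in the parental and 3.18 FPKM in the resistant line, and ADAMTSL1 at 30.1 and 23.0 FPKM.

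The reverse, a level in parental cells and 0 in resistant cells, was led by XLOC_008496 in the no-strand part of chromosome 18, at 47.5 FPKM in parental cells. XLOC_001913 in the plus part of chromosome 10 followed at 19.2 FPKM, then XLOC_001538 on chromosome 1 at 10.6 FPKM, XLOC_005044 on chromosome 14 at 9.45 FPKM and XLOC_006043 on chromosome 15 at 7.93 FPKM. The named neighbours of XLOC_005044 barely differed: MIPOL1 was at 11.3 and 11.4 FPKM and GEMIN2, a gene of spliceosome assembly, at 20.2 and 20.9 FPKM. XLOC_010080, in the plus part of chromosome 2 after MTX2, was at 6.27 FPKM in parental cells, and XLOC_004528 on chromosome 12 at 6.07 FPKM.

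With the pseudocount of 1, which draws low loci towards equality, the lowest ratio among loci seen in both libraries was that of XLOC_015092 in the no-strand part of chromosome 5, at 299 FPKM in the parental and 24.8 FPKM in the resistant line (log2 ratio -3.54), which matched 12 to 1. Whole-number matches were common in this group, as they were among all members above 0 in both libraries (62.7%). XLOC_007560 in the minus part of chromosome 17, between the olfactory receptor gene OR3A2 and the heat-sensing channel gene TRPV1, was at 48.9 and 4.87 FPKM and matched 10 to 1. So did XLOC_013469 on chromosome 3, at 36.6 and 3.64 FPKM, and XLOC_000126 on chromosome 1, at 24.8 and 2.47 FPKM. The last lay between GPN2 and NUDC, in a gap from 26890298 to 26900237, although GPN2 is annotated on the minus strand and its locus stood in the plus part.

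XLOC_016277 in the plus part of chromosome 7 was at 121 FPKM in the parental and 17.2 FPKM in the resistant line (log2 ratio -2.74) and matched 7 to 1. XLOC_006413 in the plus part of chromosome 16, before CNEP1R1, was at 32.7 and 4.44 FPKM, and XLOC_015327 in the plus part of chromosome 6, between CDC40 and CDK19, at 17.2 and 1.51 FPKM. XLOC_002561 on chromosome 10 was at 18.1 and 1.64 FPKM and matched 11 to 1. Among their named neighbours, CDC40, a splicing gene, was at 10.4 and 9.83 FPKM, and CNEP1R1 at 7.76 and 8.50 FPKM.

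Where both neighbours matched an annotated gene, the gap between them could be searched for annotated genes on the inferred strand that had no row under their own name. That gave a gap for 2289 members, but its median length was 1019 kb and 52 gaps were under 10 kb, so a gap rarely points to 1 candidate. Of 303 plus and minus members with a gap, 34 had 0 such genes inside, 39 had 1 and 230 had more. The single candidates were mostly long intergenic noncoding RNAs (17) and antisense transcripts (9). Position in the same gap does not show that locus and gene are the same.

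Of those 39 members, 3 were higher and 5 lower by the size rule, beside 2.93% and 2.82% of all plus and minus loci and 4.18% and 12.3% of the unnamed ones. Besides XLOC_010099 and XLOC_013157 the following 6 are named because their values were seen. XLOC_016550, in a gap with the antisense gene SLC12A9-AS1, was at 0.338 FPKM in the parental and 5.40 FPKM in the resistant line. XLOC_011490, in a gap with LINC01429 between the transcription factor genes SALL4 and ZFP64, was at 18.9 and 3.47 FPKM. XLOC_012563, in a gap with LINC01985, was at 10.6 and 3.02 FPKM, and XLOC_003020, in a gap with AP000924.1, at 2.18 and 0.155 FPKM. XLOC_004819 and XLOC_012017, each in a gap with a pseudogene copy of the signal recognition particle RNA, RN7SL700P and RN7SL633P, were at 6.38 and 1.53 FPKM and at 7.64 and 2.54 FPKM.

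Some unnamed loci past the limit stood next to a named locus past it in the same direction, and these shares are given as counts with no test. The nearest named locus stood at a step of 1 in number for 65.4% of 2662 placed members, and the furthest at 13 steps. Of 224 higher members with a measured neighbour, 65 (29.02%) had a higher one, against 15.01% of 2165 members within 2-fold. Of 271 lower members, 83 (30.6%) had a lower one, against 11.5%. Named loci and their own neighbours gave 25.7% against 8.17%, and 22.4% against 5.60%.

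The correlation of a member's log2 ratio with the mean of its neighbours was weak, with Pearson's r of 0.21 and Spearman's rho of 0.20 over 2660 loci, and 0.24 and 0.23 over 15926 named loci. These points share the same 2 libraries, and many share a neighbour. Many neighbours were themselves no-strand loci that carried a gene's name, while that gene could also have its own plus or minus locus. When the neighbouring gene's own plus or minus locus was used instead, an alternative chosen after seeing the data, 13.6% of higher members had a higher neighbour against 3.96% of those within 2-fold, and 23.0% of lower members a lower one against 5.92%.

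**Figure D4:**
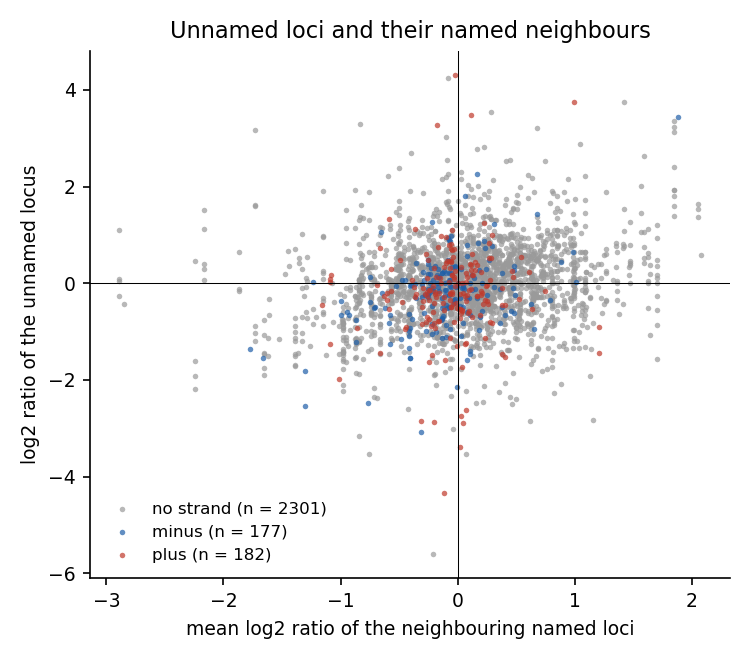
Log2 ratio (resistant over parental) of each unnamed locus on the y axis against the mean log2 ratio of its neighbouring named loci on the x axis, coloured by inferred part. The cloud is broad, with Pearson's r of 0.21 over 2660 loci, and vertical columns of points are unnamed loci that share the same neighbours.

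Adjacent unnamed loci were compared in the same way, also with no test. In 1386 pairs of members adjacent in number, both were higher in 36, both lower in 48, and they were past the limit in opposite directions in 20. The partner of a higher member was higher in 28.0% of cases, against 7.47% for members within 2-fold. The partner of a lower member was lower in 31.5%, against 8.55%. Pearson's r over the pairs was 0.37 and Spearman's rho 0.36. Adjacent loci may be pieces of 1 transcript, so they are not independent.

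Members with no named locus between them formed 1270 runs, of which 687 held 1 locus and the longest 26. Of 305 runs with at least 3 members, 63 had 2 or more past the limit in 1 direction. In 17 of them at least 3 members, making up 50% or more of the run, were past the limit the same way, 10 higher and 7 lower. These 17 were chosen after their values were seen, and each lay in a part of no strand. A member under 1 FPKM in 1 library passed the membership limit only through the other. Its direction, though not the size of its difference, was fixed by that rule.

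The longest of the 17 lay on chromosome 2 between SPEG and SCG2, in the gap from 219498288 to 223596939. All 22 members, XLOC_011105 to XLOC_011126, had lower values in resistant cells, and 13 were past the limit, with a median log2 ratio of -1.26. Apart from XLOC_011124 all were under 1 FPKM in resistant cells, so the membership rule fixed their direction. The highest was XLOC_011121, at 7.19 FPKM in the parental and 0.896 FPKM in the resistant line, followed by XLOC_011124 at 6.23 and 1.13 FPKM. XLOC_011122 was at 3.68 FPKM in parental cells and listed at 0 in resistant cells.

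SCG2, which encodes secretogranin II, a protein of neuroendocrine secretory granules, ended this run. Its own minus locus was at 109 FPKM in the parental and 20.1 FPKM in the resistant line (log2 ratio -2.38), and its no-strand locus at 2.01 and 0.133 FPKM. Immediately before the minus locus, XLOC_010615 was at 64.4 and 10.2 FPKM and XLOC_010614 at 8.35 and 1.67 FPKM, so unnamed loci on the strand of SCG2 were lower as well. Of 8 other named genes in the gap, ACSL3, a gene of fatty acid activation, was lower, at 19.6 and 8.59 FPKM. The other 7 were within 2-fold, among them FARSB, a tRNA synthetase gene at 111 and 94.4 FPKM. Among the loci described here inside this gap, values past the limit belonged to 13 unnamed no-strand loci, 2 unnamed minus loci and ACSL3. Unnamed plus loci, and minus loci further from SCG2, are not described.

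A second run on chromosome 2 lay between KIAA1715 and LINC01116 (176002840 to 176629588). That gap holds the HOXD cluster, a row of homeobox transcription factor genes that pattern the body axis and limbs. The order of the table does not say where in the gap the members came from. Of the 10 members of the run, XLOC_011030 to XLOC_011039, 7 were lower. All but XLOC_011032 were under 1 FPKM in resistant cells, so the membership rule fixed their direction. XLOC_011033 was at 3.45 FPKM in the parental and 0.362 FPKM in the resistant line, and XLOC_011035 at 2.41 and 0.0512 FPKM, while XLOC_011030, XLOC_011034 and XLOC_011038 were listed at 0 in resistant cells. The exception was the very abundant XLOC_011032, at 598 and 981 FPKM.

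Named genes across the same gap were lower too. Of 9, 6 were past the limit, including HOXD9 at 9.15 FPKM in the parental and 2.96 FPKM in the resistant line, HOXD11 at 2.76 and 0.527 FPKM, and HOXD8 at 33.1 and 15.9 FPKM. HOXD4 and the antisense gene HAGLR had log2 ratios of -0.91 each, and MTX2, a mitochondrial import gene at the end of the cluster, was at 236 and 212 FPKM. LINC01116 itself was at 58.8 and 8.61 FPKM on its own strand, and the unnamed minus locus before it, XLOC_010535, at 2.38 and 0.328 FPKM.

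The clearest runs of higher loci lay on chromosome 6 after OGFRL1. The 3 members between OGFRL1 and MIR30C2 were all higher: XLOC_015813 was at 3.05 FPKM in the parental and 9.54 FPKM in the resistant line, XLOC_015814 at 5.14 and 16.8 FPKM, and XLOC_015815 at 4.43 and 16.01 FPKM. OGFRL1 itself was at 39.8 and 114 FPKM. All 9 members of the next run, XLOC_015817 to XLOC_015826, were higher, with a median log2 ratio of 1.93. Apart from XLOC_015819 and XLOC_015822 they were under 1 FPKM in parental cells, so the membership rule fixed their direction. XLOC_015819 was at 1.61 and 25.7 FPKM, XLOC_015822 at 1.10 and 18.7 FPKM, and XLOC_015820 at 0.209 and 9.58 FPKM. The long noncoding RNA LINC00472, within whose annotated span (71344344 to 71420769) the microRNA gene MIR30C2 lies, was at 0.527 and 12.4 FPKM on its own strand.

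Successive runs on chromosome 10 changed direction within a few loci. Before the name MIR6078, 4 of 6 members (XLOC_002450 to XLOC_002456) were lower. Between LOC101927964 and the long noncoding RNA LINC00702, 5 of 6 were lower, among them XLOC_002464 at 5.79 FPKM in the parental and 0.832 FPKM in the resistant line and XLOC_002465 at 5.67 and 0.969 FPKM. LINC00702 followed them at 34.8 and 3.15 FPKM in its highest no-strand locus. After it, XLOC_002468 to XLOC_002470 were also below their parental values, and 2 of these 3 were past the limit. Of all these members only XLOC_002453 and XLOC_002463 reached 1 FPKM in both libraries. The membership rule fixed the direction of the others.

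The next 3 loci went the other way. Each was under 1 FPKM in parental cells, so the membership rule fixed its direction too. XLOC_002471 was listed at 0 in parental cells and at 2.02 FPKM in resistant cells, XLOC_002472 was at 0.0404 and 2.20 FPKM, and XLOC_002473 was listed at 0 and at 8.02 FPKM. The gap from LINC00702 to LINC00704 thus held both lower and higher members. On the minus strand XLOC_002196, before LINC00702, was at 8.81 and 2.37 FPKM, and XLOC_002198, after it, at 14.9 and 8.42 FPKM.

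**Figure D5:**
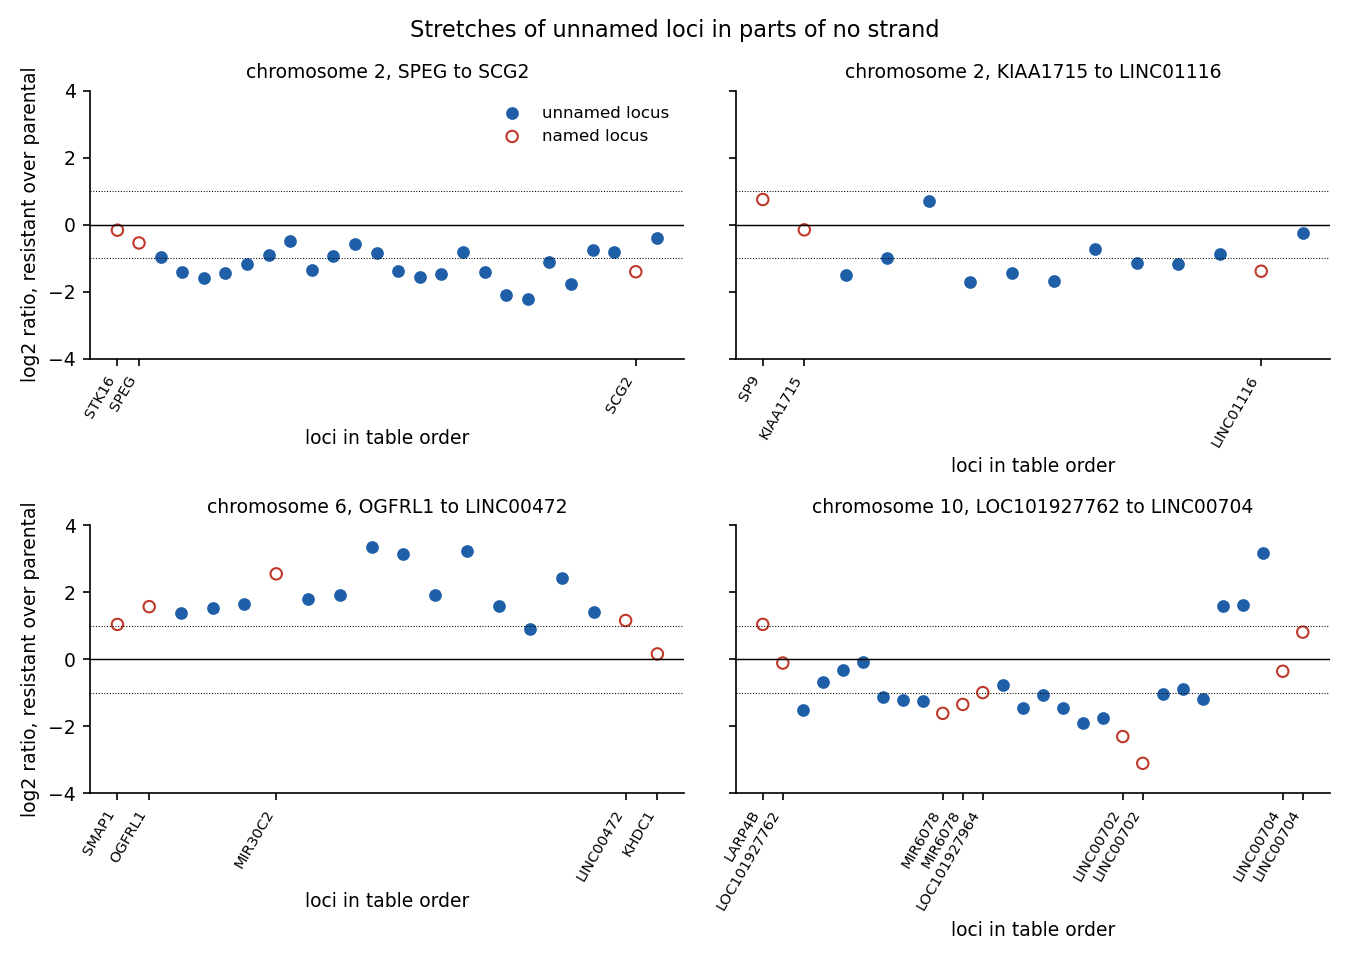
Log2 ratio (resistant over parental) of unnamed loci (filled) and named loci (open) in table order for 4 stretches in parts of no strand, with dotted lines at the 2-fold limit. The SPEG to SCG2 stretch lies below 0 throughout, the OGFRL1 to LINC00472 stretch above 0, and the chromosome 10 stretch turns from lower to higher before LINC00704.

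Another run on chromosome 10, between PWWP2B and KNDC1, had 9 of 9 members with higher values in resistant cells and 6 past the limit. Its levels were low, with medians of 0.401 FPKM in the parental and 2.00 FPKM in the resistant line. Every member was under 1 FPKM in parental cells, so the membership rule fixed its direction. KNDC1, a gene of neuronal dendrite growth, was at 6.73 and 10.8 FPKM on its own strand.

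On chromosome 7 all 3 members between HGF and DMTF1 were higher. Each was under 1 FPKM in parental cells, so the membership rule fixed its direction. XLOC_016857 was at 0.0761 FPKM in the parental and 3.03 FPKM in the resistant line, XLOC_016858 was listed at 0 and at 3.81 FPKM, and XLOC_016859 was listed at 0 and at 18.1 FPKM. The gap spans 5382 kb. Of 5 named genes inside it, SEMA3D, which encodes a secreted guidance protein, was higher, at 1.54 and 49.7 FPKM, and the others were within 2-fold, among them the calcium channel gene CACNA2D1 at 23.6 and 22.2 FPKM. The order of the table does not say which part of the gap the members came from.

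The remaining runs held 3 to 6 members. On chromosome 1, 3 of 4 members between MCOLN2 and SYDE2 were higher, and 3 of 4 between SYT14 and SLC30A1 lower, including XLOC_001797 at 9.45 FPKM in the parental and 1.28 FPKM in the resistant line. SLC30A1, a zinc exporter gene, was at 5.86 and 1.44 FPKM on its own strand. Its no-strand locus, which flanked this run, was at 93.7 and 5.18 FPKM. On chromosome 12, 3 of 5 members between PAWR and LIN7A were lower. LIN7A, a cell polarity gene, was at 6.74 and 1.83 FPKM on its own strand and at 9.83 and 2.45 FPKM in its no-strand locus. On chromosome 2, 3 of 3 members before the homeobox gene GBX2 were higher, with GBX2 at 9.72 and 21.4 FPKM on its own strand. On chromosome 9, 3 of 4 members between ACER2 and CDKN2B-AS1 were higher, and CDKN2B-AS1 was at 2.12 and 2.11 FPKM on its own strand. On chromosome 17, 3 of 5 members between CBX8 and GAA were higher and 3 of 6 between C17orf67 and CUEDC1 lower, and on chromosome 7, 3 of 4 between LOC100653233 and ZNF736 were higher. All members before GBX2 and all between LOC100653233 and ZNF736 were under 1 FPKM in parental cells, so the membership rule fixed their direction. The same held for every higher member between MCOLN2 and SYDE2. Every lower member between C17orf67 and CUEDC1 was under 1 FPKM in resistant cells, with its direction fixed likewise. In each of the other runs of this paragraph it held for some of the members past the limit.

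At the ends of the 10 higher runs, 15 of 20 flanking named loci had a log2 ratio of the same sign, and 5 runs had a flank past the limit in the same direction. At the ends of the 7 lower runs this held for 12 of 14 flanks and 6 runs. With the flanking gene's own plus or minus locus the counts were 10 of 20 flanks and 4 runs, and 6 of 12 flanks and 5 runs. MIR30C2 flanked both chromosome 6 runs and was counted for each. The runs were chosen for their direction, and flanks of other runs were not compared.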

How the data were processed

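The 2 libraries, 1 of parental and 1 of cisplatin-resistant SBC5 cells, were compared as deposited. Per the file headers, the authors' table gives FPKM per locus in 1 column per library. Reads were processed with TopHat2 (version not stated) and hg38, per the submitters' processing notes. What computed the FPKM, and on which annotation, is not given in the sources used here. The table holds no counts, so depth is unknown and no interval was computed.

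The log2 ratio used a pseudocount of 1 and understates differences of low loci. A size limit of 2-fold replaced a test. Chromosomes and parts were inferred from locus order and annotated strands with GENCODE release 29 symbols, 526 anchors through older symbols. Named loci were the 15 highest and 15 lowest log2 ratios, the 10 highest means, the 5 highest listed at 0 in the other library, each way, and runs of at least 3 members with at least 2 past the limit. Others were chosen after their values were seen. Loci on chromosome 8 are given by values only. The members and lists were chosen with earlier results of these data known. The procedure was tested on simulated data. Python 3.11.15, pandas 2.3.3 and NumPy 2.4.6 were used. Alternatives varied the pseudocount, level filter, scaling, limit, part, neighbour step, whole-number range and tolerance.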

Additional observations from a re-analysis of the deposited data

How the results depend on the processing

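Higher and lower counts, 229 and 275 as reported, were 459 and 512 with a pseudocount of 0.1, 62 and 52 with 5, 100 and 116 among the 569 members of at least 5 FPKM, 43 and 38 at a 4-fold limit, and 15 and 44 among the 359 plus and minus members, which held 0.231% of the summed parental FPKM and 0.187% of that of the resistant library. Higher members were 45.4% of those past the limit, 54.4% with a pseudocount of 5 and 25.4% in the plus and minus parts. Over all loci, the percent higher and lower was 10.2 and 7.31 with a pseudocount of 0.1, 1.28 and 1.16 with 5, 4.64 and 4.02 at 5 FPKM, and 0.765 and 0.615 at 4-fold. An equal sum moved the median of all loci to -0.09. The share of higher members with a higher neighbour was 46.2% with a pseudocount of 0.1 (29.2% of members within the limit), 15.3% with 5 (1.96%), 12.2% at 4-fold (1.63%), 13.3% in plus and minus parts (4.00%), 18.1% at a step of 1 (10.7%) and 13.6% (3.96%) with the neighbouring gene's own plus or minus locus. The share of lower members with a lower neighbour was 7.69% (2.90%) with a pseudocount of 5, 20.3% (10.9%) at 5 FPKM, 5.26% (2.29%) at 4-fold and 18.4% (7.79%) at a step of 1. With whole numbers up to 10, 28.9% of ratios matched. Of the 40 single loci, XLOC_001542 alone crossed the limit under a pseudocount or scaling alternative, and XLOC_004616 alone changed sign, from 0.07 to -0.02 with an equal sum, within the limit in both. The cause of these shifts was not tested. No paired analysis was possible because each group has 1 library. Without replicates, counts or locus lengths, values that rest on few fragments could not be marked out with certainty. The 62.7% of 2682 members whose ratios matched fractions of integers up to 20 could rest on few fragments, which was not tested.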

Other observations

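The 67 members that could not be placed on a chromosome had mean levels from 0.591 to 1046 FPKM, and 5 (7.46%) were higher and 4 (5.97%) lower in resistant cells, against 5.48% and 4.27% of all loci. The most abundant, XLOC_005566, was at 599 FPKM in the parental and 1493 FPKM in the resistant line. XLOC_005783 was at 26.8 and 133 FPKM, and XLOC_014298 at 2.78 and 0.213 FPKM. These loci were named after their values were seen.

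Chromosomes differed in the direction of their members. On chromosome 13, 9 of 40 members were lower and 0 higher, and on chromosome 18, 5 of 24 were lower and 0 higher. On chromosome 8, 10 of 86 were higher and 3 lower. Named loci on chromosome 13 gave 4.15% higher and 3.81% lower, those on chromosome 18 gave 5.91% and 2.27%, and those on chromosome 8 gave 7.48% and 4.11%. These chromosomes were picked out after their values were seen, and the differences were not tested.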
